A study of Mus musculus with 5 samples.

Results

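Integrins and the genes of the basement membrane were followed in the luminal layer of the mouse uterus from day 3 of pregnancy to the morning of day 5, when the embryo had attached. They were chosen by symbol alone, as the genes of the count table named as integrin α or β subunits, laminin α, β or γ chains, collagen IV chains or nidogens. This gave 45 genes of 23420, of which 26 encode integrin subunits and 19 encode laminin, collagen IV or nidogen chains. All 45 are annotated as protein coding in the GENCODE mouse annotation.

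Integrins are receptors made of an α and a β subunit that span the cell membrane and hold the cell to the matrix outside it. The basement membrane under an epithelium is a sheet of laminin trimers and collagen IV trimers, which nidogens link to each other. In the pregnant uterus the luminal epithelium rests on this sheet, faces the blastocyst at attachment and then folds into the implantation chamber around it. Integrins and their ligands are long studied as markers of a receptive epithelium.

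The 5 libraries came from wild-type C57BL/6N mice, for which the labels give no other allele, no treatment and no age. There was 1 library each for the morning of day 3, the morning of day 4, the evening of day 4 and, on the morning of day 5, the layer away from the attached embryo (labelled M pole) and the layer around it (labelled AM pole). The day 5 libraries thus differ in the pole of the uterus as well as in nearness to the embryo, and these cannot be told apart. The methods describe laser microdissection of the luminal epithelium, with the RNA of several samples pooled into 1 per group, for Lif-floxed and Lif mutant mice on the evening of day 4. They do not name the 5 libraries used here, for which dissection and pooling are not given. With 1 library per group no difference between groups has a replicate check and none was tested.

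The libraries held 15334674 to 19529491 counts, and the 45 genes took 0.113% to 0.174% of them in the first 4 libraries and 0.321% around the embryo. The floor of 3 counts equals 0.161 to 0.190 CPM, that is, counts per 1000000 of the TMM-scaled library size. A gene was kept when its mean over the 5 libraries reached 1 CPM, here on library totals without TMM scaling. Of all genes 12918 reached this limit, as did 41 of the 45. Itga8, Itga10, Itga11 and Itgad did not, with 0 to 17 counts in any library. A change is the later minus the earlier log2 CPM, or around minus away on day 5, computed with a prior count of 2. In square brackets stands its exact 95% counting interval (Clopper-Pearson), which leaves the prior count out. PCR reads are not independent molecules, so the intervals cover counting error only. A fold against a library at 0 counts was set against 3 counts in that library and is a lower bound. A gene is called higher or lower when its change between a pair of libraries is past 2-fold, a log2 change beyond 1. The pairs share libraries and so are not independent.

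All 10 markers of the luminal epithelium were counted in every library, with a summed level of 4815 to 15020 CPM. The library around the embryo stood apart in markers of other cells. There 5 trophectoderm markers summed to 109 CPM against 5.01 to 12.9 elsewhere, 3 epiblast markers to 5.57 CPM against at most 0.115, and 6 smooth muscle markers to 395 CPM against 10.9 to 31.8, most of it Des with 6090 counts. Of these and of 6 primitive endoderm markers, Cdx2, Gata4, Pou5f1 and Nanog were at 0 in the first 4 libraries and had 22, 54, 68 and 10 counts around the embryo. The primitive endoderm markers summed to 2327 CPM against 825 to 2218, nearly all of it Sox17, which had 14211 to 39217 counts in every library, while Sox7 was lowest around the embryo. The 5 gland markers in the table summed to 30.4 CPM against 1.26 to 4.23, most of it Lif with 304 counts. The paper places Lif in the glands before attachment but in the stroma near attached embryos on day 5. Which cells gave this sum was not tested. The 6 endothelial markers summed to 96.2 CPM against 13.2 to 45.7, most of it Cdh5 with 1229 counts, while Kdr and Emcn were at their lowest with 18 and 27. The 9 stromal markers summed to 380 CPM against 499 to 580, with Col1a2, Col3a1, Dcn and Lum at their lowest and Col1a1, Pdgfra and Hand2 at their highest. The 6 leukocyte markers summed to 92.0 CPM there against 251 to 356. The part of these cells in the results was not tested, and in bulk RNA fewer cells of a type and less RNA per cell cannot be told apart.

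Few of the 41 genes were past 2-fold before attachment, and most were around the embryo on day 5. From the morning of day 3 to the morning of day 4, 7 of 41 were past 2-fold, or 17.1% against 18.9% of all kept genes, with 4 higher (7.41% of all genes) and 3 lower (11.5%). From the morning to the evening of day 4, 6 were past it, or 14.6% against 14.1%, with 2 higher (7.2% of all genes) and 4 lower (6.94%). Both shares lay near that of all genes. The counting interval lay wholly past 2-fold for 5 and 1 members in these pairs, against 10.6% and 6.94% of all genes.

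From the evening of day 4 to day 5, 14 of 41 were past 2-fold away from the embryo, or 34.1% against 25.6% of all kept genes, with 7 higher (13.0% of all genes) and 7 lower (12.7%). Around the embryo 28 were past it, or 68.3% against 39.8%, with 15 higher (19.1%) and 13 lower (20.7%). Between the day 5 libraries 30 of 41 differed past 2-fold, or 73.2% against 28.3%, and around the embryo 16 of these were higher (13.3%) and 14 lower (15.0%). The median change over the 41 genes stayed small in these 3 pairs at 0.32, 0.25 and 0.12, beside 0.01, -0.02 and -0.05 over all kept genes, since higher and lower members nearly balanced.

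Read against counting error alone, the interval lay wholly past 2-fold for 10 members away from the embryo, 21 around it and 22 between the day 5 libraries. Among all kept genes 16.9%, 29.5% and 19.5% did so. Of 24 members whose mean reached 5 CPM, 15 were past 2-fold around the embryo against the evening of day 4 and 17 between the day 5 libraries, where 35.3% and 23.5% of all genes at that level were. Of the 41 members, 17 (41.5%) had their highest CPM around the embryo, as did 28.8% of all kept genes, and 12 (29.3%) had their lowest there, as did 32.3%.

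**Figure D1:**
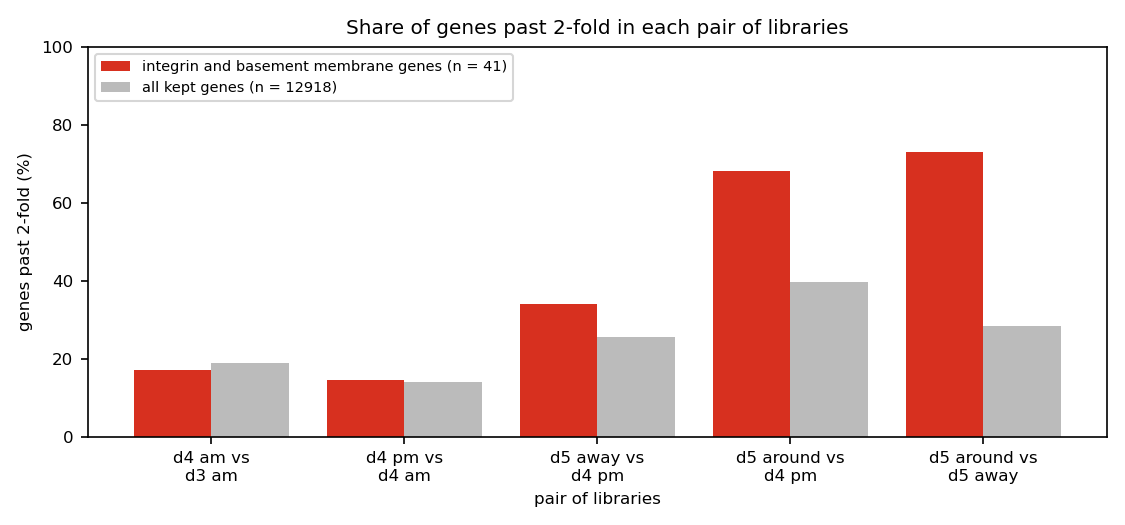
Share of the 41 kept integrin and basement membrane genes (red) and of all 12918 kept genes (grey) that were past 2-fold in each pair of libraries, in percent. The red bars stand near the grey ones in the first 2 pairs and reach 68.3% and 73.2% against 39.8% and 28.3% in the last 2.

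Both day 5 libraries were set against the same library of day 4, so that their changes are given side by side and are not independent.

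**Figure D2:**
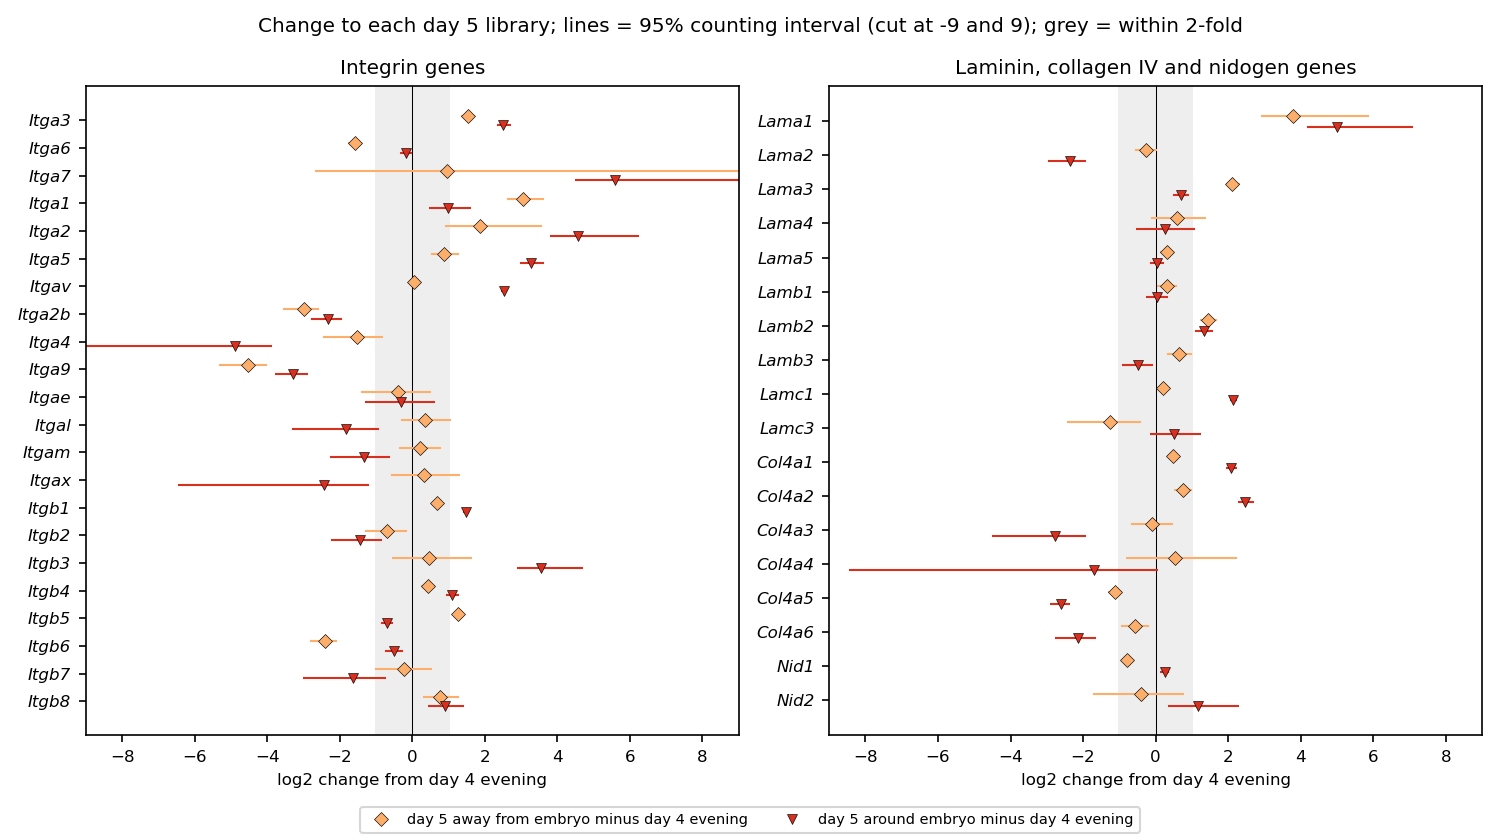
Log2 change from the evening of day 4 to the day 5 library away from the embryo (orange diamonds) and around it (red triangles) for the named kept genes, with the 95% counting interval as a line and the band within 2-fold in grey. The points of Itga7 and Itga4, each with a library at 0, depend on the prior count. Orange diamonds reach from -4.52 at Itga9 to 3.79 at Lama1.

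Among the integrin α subunits that bind laminin, Itga3, which pairs with Itgb1 in basal epithelial adhesion, had 733, 514 and 349 counts on the morning of day 3, the morning of day 4 and the evening of day 4. On day 5 it had 1196 counts away from the embryo and 2175 around it. It was lowest on the evening of day 4 and higher in both day 5 libraries, by 1.53 [1.37, 1.72] and 2.51 [2.35, 2.68]. Itga6, the α subunit of hemidesmosomes when joined to Itgb4, had 1125, 823 and 976 counts before attachment, 387 away from the embryo and 942 around it. It was low only away from the embryo, where its change from day 4 was -1.57 [-1.75, -1.40], and around the embryo it differed from the evening of day 4 by -0.17 [-0.30, -0.04].

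Itga7, best known as the laminin receptor of muscle, had 5, 12, 0 and 2 counts in the first 4 libraries and 93 around the embryo. It was thus near the floor until the last library, where it was at least 28.5-fold higher than on the evening of day 4. The smooth muscle markers given above were high in the same library, and their part in this was not tested. The exons of Itga7 and of Mettl7b on the other strand share 8 bases, and Mettl7b had 166 counts around the embryo and 0 in every other library, so a few of the reads could belong to it.

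The collagen receptors Itga1 and Itga2, which both pair with Itgb1, were highest in different day 5 libraries. Itga1 had 36, 24 and 42 counts up to the evening of day 4, 425 away from the embryo and 93 around it. Its level away from the embryo stood above all others, by 3.05 [2.64, 3.60] from the evening of day 4, and the library around the embryo differed from it by -2.05 [-2.42, -1.75]. Itga2 had 41, 0 and 7 counts up to the evening of day 4, 36 away from the embryo and 226 around it. It was at least 14.1-fold lower on the morning of day 4 than on day 3. Both day 5 libraries lay above the evening of day 4, by 1.88 [0.94, 3.54] away from the embryo and 4.57 [3.82, 6.22] around it. Around the embryo Itga2 was higher than away from it by 2.69 [2.25, 3.32].

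Among the subunits that bind the RGD motif of fibronectin, vitronectin and osteopontin, Itgav had the largest counts. Its protein joins 5 β subunits, and the gene lies on chromosome 2 from 83724397 to 83806916 on the plus strand (GRCm38). There were 1837, 1520 and 2365 counts before attachment, 2909 away from the embryo and 14915 around it. Only the last of these libraries was high. Its change from the evening of day 4 was 2.53 [2.47, 2.60] there, a 5.79-fold difference, and 0.06 [-0.02, 0.14] away from the embryo.

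Itga5, the fibronectin receptor with Itgb1, had 133, 110 and 100 counts before attachment, 220 away from the embryo and 1074 around it. It was higher around the embryo by 3.28 [3.01, 3.61] and lay within 2-fold away from it at 0.89 [0.55, 1.26], a value that was 1.11 when libraries were scaled by their totals. Itga2b, the platelet fibrinogen receptor when joined to Itgb3, had 204, 329 and 315 counts before attachment, 45 away from the embryo and 67 around it. It was low in both day 5 libraries, by -2.99 [-3.53, -2.59] and -2.32 [-2.76, -1.97]. The platelet markers Pf4, Ppbp, Gp9 and Gp1ba summed to 0.697 to 2.38 CPM over the 5 libraries, with Gp9 at 0 in all of them.

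Itga9, a receptor for tenascin and osteopontin, showed the largest change of all members away from the embryo. It lies on chromosome 9 from 118606709 to 118901003 on the plus strand and had 759, 1010 and 487 counts before attachment, then 23 away from the embryo and 53 around it. Both day 5 libraries lay far below the others, by -4.52 [-5.31, -4.04] and -3.27 [-3.76, -2.91] from the evening of day 4. The related Itga4 had 18, 30, 52 and 20 counts in the first 4 libraries and 0 around the embryo, where it was at least 18.9-fold lower than on the evening of day 4. On the other strand Cerkl overlaps 1.69% of the exons of Itga4.

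Among the α subunits of leukocyte integrins, Itgal (46, 76, 34, 52 and 9 counts in the order of the libraries), Itgam (44, 27, 49, 67 and 20) and Itgax (24, 26, 18, 27 and 2) were each lowest around the embryo. Against the evening of day 4 they were lower there by -1.83 [-3.29, -0.95], -1.33 [-2.24, -0.64] and -2.44 [-6.44, -1.23], and away from the embryo all 3 lay within 2-fold. Itgae, the αE subunit of epithelial lymphocytes, had 58 counts on both mornings before attachment, 23 on the evening of day 4 and 20 in each day 5 library. Of the 6 leukocyte markers counted, 4 were also low around the embryo (Ptprc 66 counts against 136 to 351, Lyz2 708 against 3390 to 5146, C1qa 101 against 428 to 582, Csf1r 37 against 97 to 170), whereas Cd68 was at its highest there with 670 and Cd3e had 0 to 13 in any library. Their part in the leukocyte integrins was not tested.

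**Figure D3:**
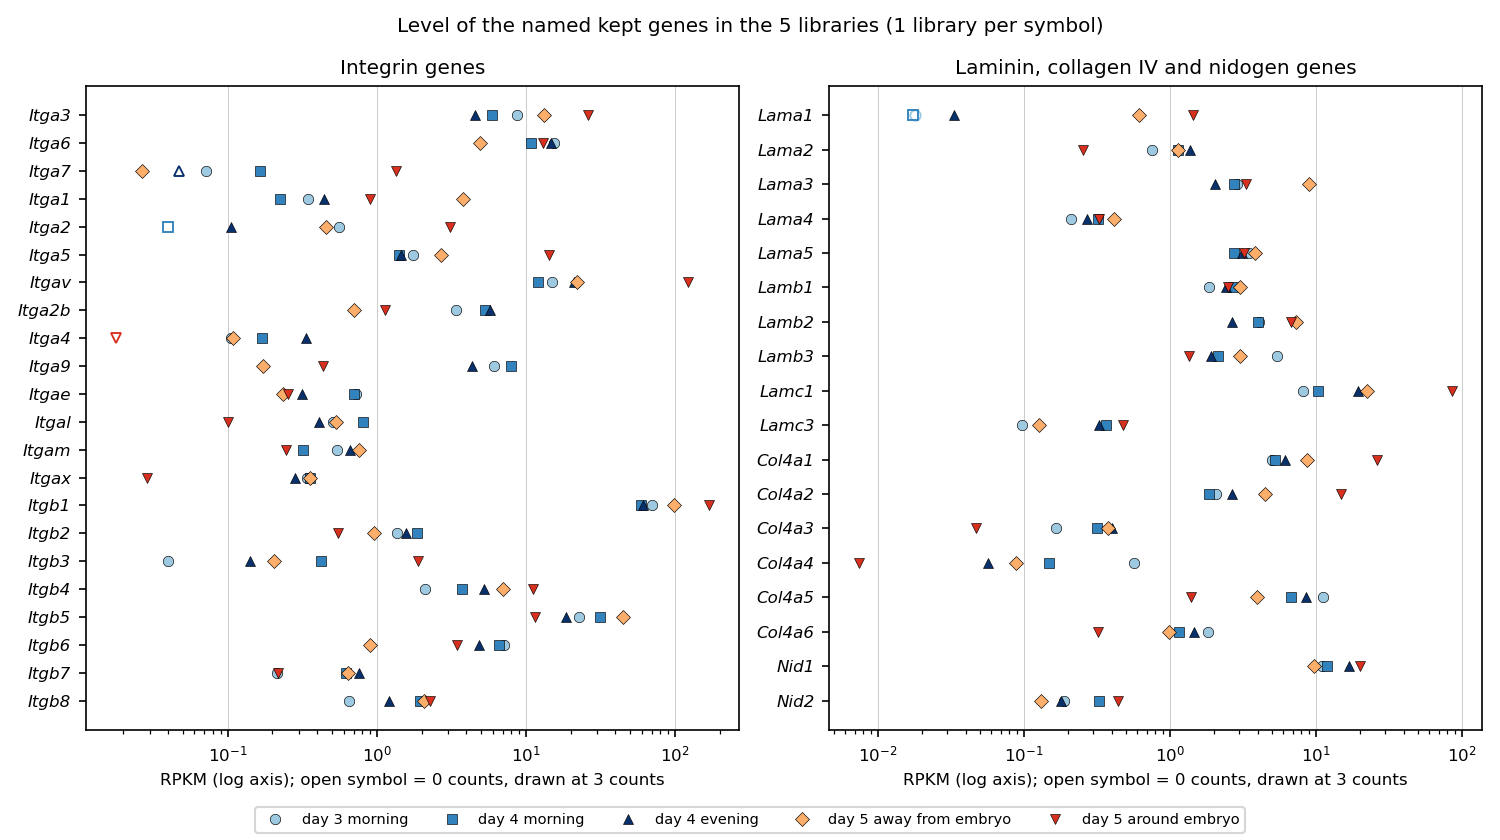
Level of the named kept genes as RPKM on a log axis, with 1 symbol per library and open symbols for a count of 0 drawn at 3 counts. Itgb1 lay furthest right of the integrins in every library, and the red triangles of Itgav, Lamc1, Col4a1 and Col4a2 stood to the right of all their other symbols.

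Between genes, levels were compared as RPKM, that is, CPM per 1000 bases of gene length. The β subunit Itgb1, the partner of most α subunits, was the most abundant member in every library, with 69.8, 58.9, 60.9, 98.1 and 169.5 RPKM. Its counts were 5087, 4438, 4043, 7673 and 12244. Away from the embryo it was 0.69 [0.63, 0.74] above the evening of day 4, and around it 1.48 [1.42, 1.53], so that it was past 2-fold around the embryo alone. Below Itgb1, the order of the levels changed. Itgb5 and Lamc1 followed it away from the embryo with 44.8 and 22.6 RPKM, and Itgav and Lamc1 around it with 123 and 86.4 RPKM. Further down, Col4a1 and Itga3 at 26.2 and 26.0 RPKM around the embryo had a ratio of 1.01 [0.953, 1.07]. Lamc1 and Itgav at 22.6 and 22.1 RPKM away from it had a ratio of 1.02 [0.972, 1.07], so that counting error alone could order either pair both ways.

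Of the other β subunits that join Itgav, Itgb3 was also highest around the embryo, and Itgb5 and Itgb6 were not. Itgb8 was highest there by little, at 7.03 CPM against 6.43 away from the embryo. Itgb5, a vitronectin receptor with Itgav, had 1294, 1853 and 965 counts before attachment, 2740 away from the embryo and 649 around it. It was highest where Itga1 was, away from the embryo, at 1.27 [1.16, 1.38] above the evening of day 4, and around the embryo it was lower than away from it by -1.96 [-2.09, -1.84]. Itgb6, which with Itgav activates latent TGFβ, had 635, 603, 395, 86 and 305 counts, low away from the embryo alone by -2.41 [-2.79, -2.10].

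Itgb3, which joins Itgav or Itga2b, had 4, 44, 13 and 22 counts in the first 4 libraries and 188 around the embryo. This was 3.56 [2.92, 4.67] above the evening of day 4, at a level of 1.89 RPKM beside 123 RPKM of Itgav. Itgb8, another TGFβ-activating partner of Itgav, had 35, 108, 59, 120 and 121 counts, with a change of 1.52 [1.02, 2.17] from day 3 to the morning of day 4 and none past 2-fold later. The RPKM ratio of Itgav to Itgb5 was 0.661, 0.382, 1.14 and 0.494 in the first 4 libraries and 10.7 [9.88, 11.6] around the embryo. Around the embryo Itgav took 66.8% of the summed RPKM of all integrin α subunits, against 25.8% to 43.9% in the other libraries, and Itgb1 took 84.5% of that of the β subunits, against 55.8% to 67.1%.

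Itgb4, the hemidesmosomal β subunit that joins only Itga6, had 227, 415, 510, 812 and 1193 counts. It differed from Itga6 in that it was above its day 4 evening level in both day 5 libraries, by 0.43 [0.27, 0.60] and 1.10 [0.95, 1.26], the second being 0.95 when scaled by library totals without the features Rn45s and Lars2. The RPKM ratio of Itga6 to Itgb4 was 7.27 [6.30, 8.42] on day 3, 2.91 and 2.81 on day 4, 0.699 [0.618, 0.790] away from the embryo and 1.16 [1.06, 1.26] around it. Itgb2, the β subunit of Itgal, Itgam and Itgax, had 68, 96, 71, 51 and 27 counts and was lower around the embryo than on the evening of day 4 by -1.45 [-2.21, -0.86]. Itgb7, the partner of Itgae and Itga4, had 10, 30, 32, 32 and 10 counts.

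**Figure D4:**
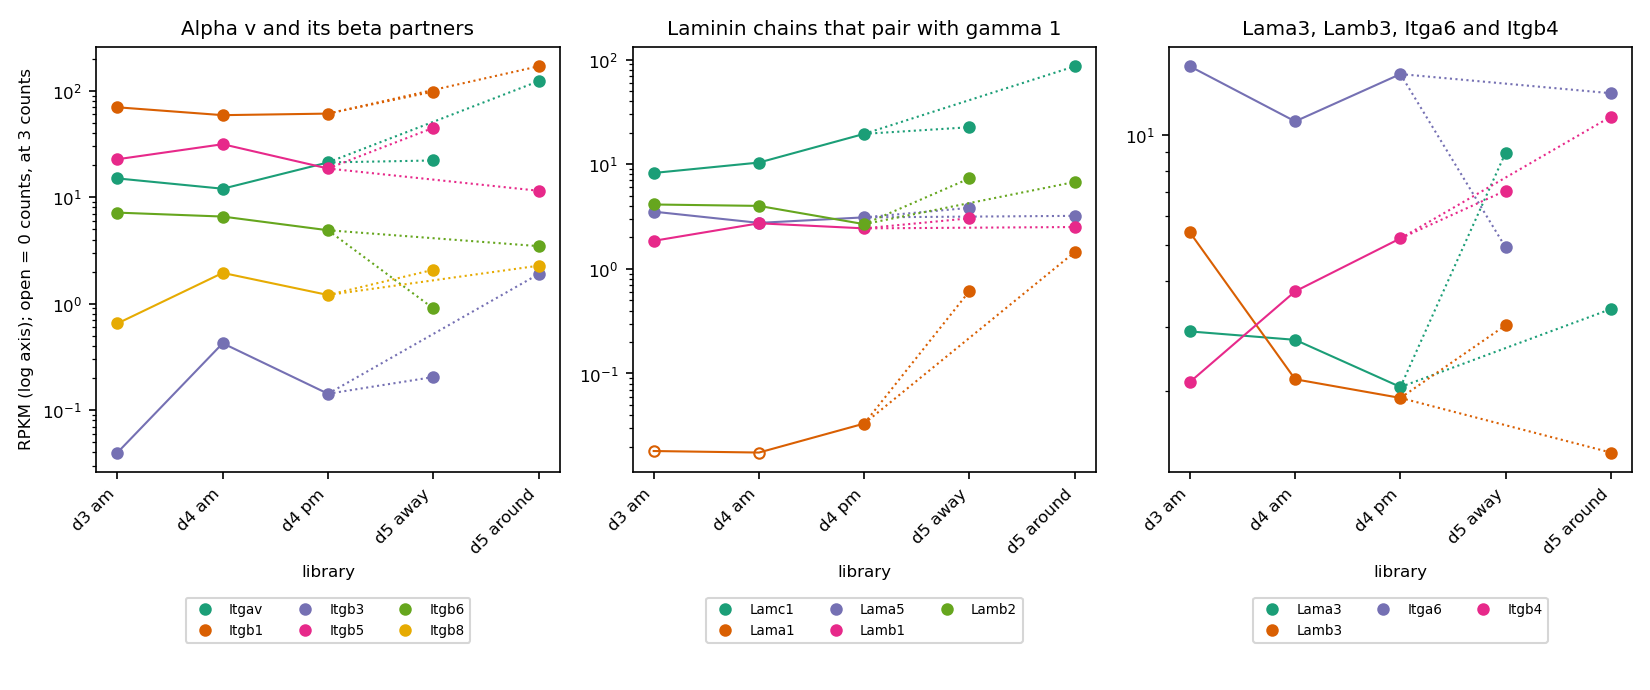
RPKM on a log axis by library for Itgav with its β partners, for Lamc1 with laminin chains it assembles with, and for Lama3 and Lamb3 with Itga6 and Itgb4, solid lines joining libraries up to the evening of day 4 and dotted lines leading from it to each day 5 library. Around the embryo Itgav (123) stood well above its partners other than Itgb1, and Lamc1 (86.4) above the laminin chains plotted with it.

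A laminin is a trimer of 1 α, 1 β and 1 γ chain, and its α chain carries the main binding sites for integrins. Lama1, the α chain of the first embryonic basement membranes, had 0, 0 and 5 counts up to the evening of day 4, 109 away from the embryo and 237 around it. Both day 5 libraries stood above the others, by 3.79 [2.94, 5.86] and 5.01 [4.20, 7.08]. Away from the embryo Cdx2, Gata4, Pou5f1, Nanog and Sox2 were at 0, while Tfap2c, Gata3 and Gata6 from the same lists had 79, 23 and 20 counts against 3, 8 and 0 on the evening of day 4. All 8 had more counts around the embryo. Elf5, Eomes, Dab2, Sox7 and Sox17 of those lists had fewer counts away from the embryo than on the evening of day 4. Their counts were 10, 26, 261, 901 and 14211 against 77, 40, 1212, 1927 and 28768, while Foxa2 had 2 against 0. The 5 trophectoderm markers summed to 7.40 CPM against 8.09. The part of embryo cells in the levels of Lama1 was not tested.

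Lama3, the α chain of laminin-332 in epithelial anchoring, had 523, 513 and 336 counts before attachment, 1729 away from the embryo and 597 around it. Like Itga1 and Itgb5 it was high away from the embryo, at 2.12 [1.96, 2.30] above the evening of day 4, and lower around the embryo than away from it by -1.42 [-1.56, -1.28]. Lama2, the chain of muscle and stromal laminins, had 128, 198, 211 and 208 counts in the first 4 libraries and 43 around the embryo, a change of -2.36 [-2.93, -1.94] from the evening of day 4. Of the 9 stromal markers 4 were at their lowest in that library too and 3 at their highest, and their part in this was not tested. Lama5, the broad epithelial α chain, stayed at 697, 563, 560, 814 and 630 counts with no change past 2-fold in any pair, and Lama4, of vessel walls, ranged from 22 to 47 counts, also with none.

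Of the β chains, Lamb1 had 186 to 328 counts and was within 2-fold in every pair. Lamb2 had 403, 404 and 238 counts before attachment and 768 and 656 on day 5, higher in both libraries by 1.45 [1.24, 1.67] and 1.33 [1.12, 1.56]. Lamb3, found in laminin-332 alone, had 382, 157, 123, 229 and 95 counts. It was highest on day 3, and its change to the morning of day 4 was -1.32 [-1.61, -1.06]. Around the embryo it was lower than away from it by -1.14 [-1.52, -0.80].

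Lamc1, the γ chain of most laminins, lies on chromosome 1 from 153218922 to 153332786 on the minus strand. It had 1093, 1421 and 2355 counts before attachment, 3212 away from the embryo and 11338 around it. It was higher on the evening of day 4 than on either morning before, and around the embryo its change from the evening of day 4 was 2.14 [2.08, 2.21], against 0.21 [0.13, 0.29] away from it. The day 5 libraries differed by 1.93 [1.88, 1.99], or 3.82-fold. Lamc3, a rare chain, had 10 to 49 counts.

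The β chains Lamb1 and Lamb2, which assemble with Lamc1, did not share its levels. The RPKM ratio of Lamc1 to Lamb1 was 4.45 [3.81, 5.23] on day 3, 7.42 [6.62, 8.34] on day 5 away from the embryo and 34.4 [30.3, 39.1] around it. Its ratio to Lamb2 in the day 5 libraries was 3.09 [2.85, 3.34] and 12.8 [11.8, 13.8]. Among the α chains, Lama1 was highest around the embryo as Lamc1 was, with 1.45 RPKM against 0.614 away from it. The summed RPKM of all α chains was highest away from the embryo at 15.0, of which Lama3 took 59.9%. It was 8.59 around the embryo, beside 6.84 to 7.40 before attachment.

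Collagen IV trimers form from 6 chains whose genes lie in head-to-head pairs. Col4a1 and Col4a2, which make the common trimer, have 2 bases between them on chromosome 8 by the exons of the count table. Col4a6 and Col4a5 have 1342 bases between them on chromosome X, and Col4a4 and Col4a3 have 71 on chromosome 1. The RefSeq promoter windows (GRCm38.p6, 250 bases before to 50 after the start, on the strand of the gene) are shown for the 2 best counted pairs, because the genes of a pair had like changes and the pairs differed on day 5. Capitals mark a GC box (GGGCGG or its complement CCGCCC) or a CCAAT box (CCAAT or ATTGG).
Col4a1 (chr8:11312777-11313076, minus strand): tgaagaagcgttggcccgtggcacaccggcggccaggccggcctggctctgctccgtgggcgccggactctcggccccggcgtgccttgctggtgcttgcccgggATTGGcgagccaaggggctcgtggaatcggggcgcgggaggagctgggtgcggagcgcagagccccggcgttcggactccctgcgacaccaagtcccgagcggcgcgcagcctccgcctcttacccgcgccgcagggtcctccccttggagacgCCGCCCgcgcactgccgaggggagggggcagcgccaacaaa
Col4a2 (chr8:11312555-11312854, plus strand): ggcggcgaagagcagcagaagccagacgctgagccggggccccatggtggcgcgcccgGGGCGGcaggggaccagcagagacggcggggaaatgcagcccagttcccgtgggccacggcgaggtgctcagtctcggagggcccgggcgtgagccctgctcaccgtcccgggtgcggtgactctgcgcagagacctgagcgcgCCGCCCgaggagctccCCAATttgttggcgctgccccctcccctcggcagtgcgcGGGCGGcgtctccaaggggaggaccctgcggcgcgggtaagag
Col4a5 (chrX:141475169-141475468, plus strand): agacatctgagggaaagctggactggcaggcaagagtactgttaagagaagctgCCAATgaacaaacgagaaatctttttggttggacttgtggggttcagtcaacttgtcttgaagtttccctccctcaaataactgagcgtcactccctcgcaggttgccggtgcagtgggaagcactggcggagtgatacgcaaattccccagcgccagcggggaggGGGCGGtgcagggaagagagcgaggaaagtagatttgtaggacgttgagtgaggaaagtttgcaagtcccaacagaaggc
Col4a6 (chrX:141474027-141474326, minus strand): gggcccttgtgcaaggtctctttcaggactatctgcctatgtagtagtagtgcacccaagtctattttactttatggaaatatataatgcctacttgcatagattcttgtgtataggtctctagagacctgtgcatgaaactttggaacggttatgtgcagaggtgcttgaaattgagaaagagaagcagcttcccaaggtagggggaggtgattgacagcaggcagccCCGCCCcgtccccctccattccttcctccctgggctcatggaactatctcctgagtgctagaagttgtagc

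The windows of Col4a1 and Col4a2 overlap by 78 bases and read that stretch on opposite strands, so that the GC box lying in it appears in both. They hold 1 and 3 GC boxes and 1 CCAAT box each, at 74.0% and 73.7% G and C. Col4a5 holds 1 of each motif at 52.7% G and C, and Col4a6 holds 1 GC box and no CCAAT box at 48.3%. The TATA box (TATAAA or TTTATA) is in none of the 4. Of all 32851 windows, 35.7% hold a GC box, 37.4% a CCAAT box and 13.6% a TATA box, and 29 members matched with 32 windows, of which 53.1%, 25.0% and 0.0% do. These letters are descriptions of the windows and were tied to no level.

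Col4a1 had 577, 628 and 649 counts before attachment, 1072 away from the embryo and 2988 around it. Col4a2 had 231, 215, 270, 539 and 1644. Both were within 2-fold away from the embryo and higher around it, by 2.08 [1.96, 2.21] and 2.48 [2.30, 2.67] from the evening of day 4, and their RPKM ratio stayed between 1.77 and 2.84 over the 5 libraries.

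Col4a5 had 1265, 786 and 888 counts before attachment, then 483 away from and 156 around the embryo, and Col4a6 had 211, 139, 155, 123 and 37. They were lowest around the embryo, by -2.62 [-2.89, -2.38] and -2.13 [-2.75, -1.66] from the evening of day 4, and their ratio stayed between 4.02 and 6.14. Away from the embryo the change of Col4a5 was -1.11 [-1.28, -0.95] and was -0.89 when libraries were scaled by their totals. Col4a3 had 25, 49, 55 and 61 counts and then 7 around the embryo, and Col4a4 had 77, 21, 7, 13 and 1. All 4 of these chains were thus lower around the embryo than away from it.

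On day 3, Col4a5 was the most abundant collagen IV chain, with 53.8% of their summed RPKM, and Col4a1 and Col4a2 took 24.1% and 9.91%. Around the embryo Col4a1 and Col4a2 took 61.2% and 34.7% and Col4a5 3.26%. Away from the embryo the shares lay between these at 46.6%, 24.1% and 21.4%. In the library around the embryo the summed trophectoderm and endothelial markers were high, the latter through Cdh5 with Kdr and Emcn at their lowest, and their part in this was not tested.

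**Figure D5:**
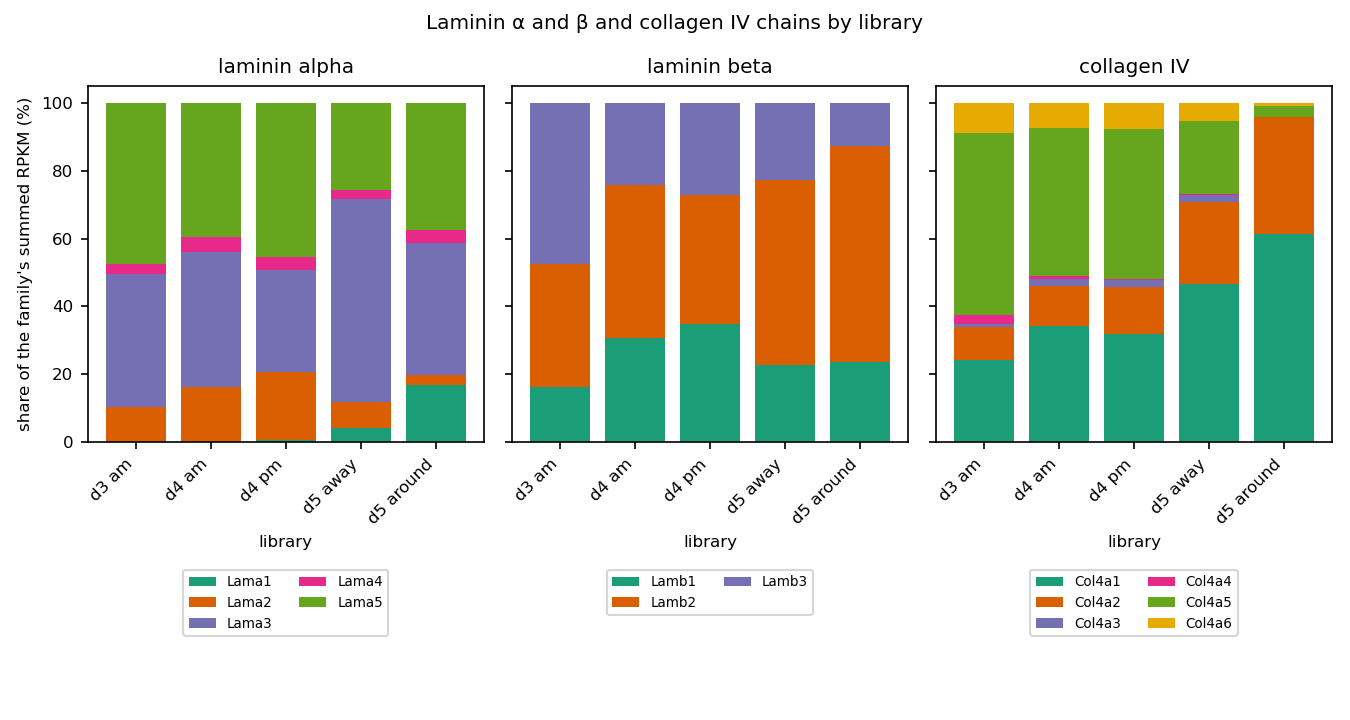
Share of each chain in the summed RPKM of its family, in percent, for laminin α and β chains and collagen IV in the 5 libraries (d3, d4 and d5 stand for the day, am and pm for morning and evening). Col4a5 takes 53.8% of the first collagen IV bar and 3.26% of the last, where Col4a1 and Col4a2 take 61.2% and 34.7%, and Lama3 has 59.9% of the α chains away from the embryo.

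Nid1, the main linker of laminin and collagen IV, had 1158, 1298, 1611, 1106 and 2095 counts. It was within 2-fold of the evening of day 4 in both day 5 libraries and higher around the embryo than away from it by 1.04 [0.93, 1.14], a difference of 0.72 when scaled by library totals. Nid2 had 12 to 37 counts. It shares 386 bases, 7.90% of its exons, with 2700060E02Rik on the other strand, which had 1290 to 2310 counts. Without the strand setting, reads of the 2 genes in that shared stretch cannot be told apart.

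From the morning to the evening of day 4 Lamc1 changed by 0.91 [0.82, 1.01], Itgav by 0.82 [0.73, 0.91], Itga9 by -0.87 [-1.03, -0.71] and Itgb5 by -0.76 [-0.87, -0.65], all within 2-fold. Those past 2-fold were Itga2, Itgb3, Itgb7, Itgb8, Lamb3, Lamc3 and Col4a4 from day 3 to the morning of day 4, and Itga2, Itga7, Itgae, Itgb3, Lama1 and Col4a4 from the morning to the evening. Other than Lamb3, and Itgb8 with 108 counts on the morning of day 4, these had fewer than 100 counts in both libraries.

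Other genes of the pathway were followed as 5 lists. Of 24 kept cytoplasmic partners of integrins (talins, kindlins and the like), 6 were higher and 3 lower around the embryo than away from it, with a median of 0.36, where 13.3% of all kept genes were higher and 15.0% lower. These shares of all genes hold for the other lists too. Tns4, a tensin that binds the tails of β subunits, had 21, 17, 17 and 11 counts in the first 4 libraries and 827 around the embryo, a change of 6.09 [5.50, 7.36] from the library away from it. Lims2, an adapter of the integrin-linked kinase, had 539, 754, 431, 328 and 2068 counts, also highest around the embryo. Fermt3, the kindlin of blood cells, had 28, 50, 32, 48 and 6, lowest there as Itgal, Itgam and Itgax were.

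Of 19 other basement membrane genes, a list that also held Lamb2, 6 were higher and 6 lower around the embryo than away from it, with a median of -0.24. Ntn4, a netrin that opens laminin networks, had 68, 8 and 6 counts up to the evening of day 4, then 364 away from and 21 around the embryo, a difference of -3.88 [-4.71, -3.37]. Tinagl1, a matrix protein of the basement membrane, had 348, 448, 370, 131 and 1388 counts, and Col7a1, the chain of anchoring fibrils, had 72, 61, 68, 52 and 392. Both were highest around the embryo.

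Of 16 kept ligands of integrins outside the basement membrane, 10 were higher and 1 lower around the embryo than away from it, with a median of 1.58 beside -0.05 over all kept genes. Spp1, osteopontin, bound by Itgav with its β partners and by Itga9, had 2427, 415, 440 and 730 counts in the first 4 libraries and 73918 around the embryo, a change of 6.77 [6.67, 6.88] from the library away from it. Tnc, tenascin C, had 281, 204, 350, 169 and 4136 counts, and Thbs1, thrombospondin, had 1403, 3912, 1409, 170 and 1962. Spp1 and Tnc were thus highest in the library in which Itgav was highest and Itga9 near its lowest. Against the library away from the embryo, Itga9 was higher there too, by 1.24, a difference of 0.95 when scaled by library totals. Of 9 matrix receptors other than integrins 2 were higher and 2 lower, and of 3 kept hemidesmosome partners 1 was higher and 1 lower.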

How the data were processed

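RNA of the luminal layer had been amplified (SMART-seq v.4) and sequenced in pairs. The submitters' processing notes name HISAT2, featureCounts (Subread 2.0.0) and GRCm38. The deposited table holds raw read counts per gene, made by the authors without normalization, with exon coordinates and gene length in bases. The annotation, the strand setting and the treatment of multimapping reads are not given in the sources used here, so antisense and near-identical genes may share reads. Groups came from the labels.

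The rule on symbols, the role lists, pathway lists and markers were chosen with earlier results of these data known. Library sizes were TMM scaled in edgeR 4.0.16 (R 4.3.3), and log2 CPM had a prior count of 2. Kept members were named by role, low ones listed, and of each pathway list with at least 10 kept genes the 3 with the largest change between the day 5 libraries were named. All 26 integrin and 19 matrix genes entered the counts of members, and 1 item is not reported here by itself. No test was possible. Intervals (95%) came from scipy 1.17.1, and DESeq2 1.42.0 size factors were an alternative. The scripts were tested on simulated data.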

Additional observations from a re-analysis of the deposited data

How the results depend on the processing

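No paired analysis was possible because each group has 1 library and the labels give no replicate numbers, so no replicate could be left out either. In the order day 3 to day 4 morning, day 4 morning to evening, evening to day 5 away from the embryo, evening to day 5 around it, and around against away, 7, 6, 14, 28 and 30 members were past 2-fold. On log2(RPKM + 1), which shrinks low genes, the counts were 1, 0, 9, 16 and 15, beside 9.04%, 5.18%, 15.4%, 27.5% and 16.9% of all genes, and the split of the last 2 moved to 13 higher against 3 lower and 11 against 4. A mean CPM of at least 5, which leaves 24 members, gave 1, 0, 10, 15 and 17, beside 13.9%, 9.83%, 22.0%, 35.3% and 23.5% of all genes. A 1.5-fold limit gave 18, 17, 22, 32 and 35, beside 37.4%, 30.3%, 44.6%, 58.5% and 46.4%, and a 4-fold limit 2, 2, 6, 18 and 13, beside 5.33%, 3.75%, 8.94%, 17.5% and 10.8%. With DESeq2 size factors, library totals, totals without Rn45s and Lars2 (chosen after seeing the data), no filter or a prior count of 0.5, each count stayed within 1.5 times its value, and no change that was past 2-fold reversed under any setting. Under scaling by library totals the median change of all genes was -0.29, 0.05, 0.23, -0.11 and -0.36. In the main setting it was 0.0025, 0.0, 0.0085, -0.0248 and -0.0525. Scaling by library totals took Itga9, Lama1 and Nid1, around against away, from 1.24, 1.22 and 1.04 to 0.95, 0.91 and 0.72. The features Rn45s and Lars2 took 15.0% to 23.2% of the counts. Depth limits the low members, such as Itga7, Itgax, Itgb7, Lamc3, Col4a4 and Nid2 with at most 93 counts in any library. Without replicates none of these values shows how far animals of 1 group differ.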
